A study of Mus musculus with 202 samples.

Results

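Single F1 oocytes of the lineage whose F0 females ate a diet high in fat and sugar, titled HFHS+Veh, were compared with F1 oocytes of the control diet lineage, titled CD+Veh. The columns of the deposited count table with those titles were taken, and an oocyte was kept when its library held at least 100000 counts over gene lines and at least 4000 genes with a count. This left 14 of 15 HFHS+Veh and 10 of 15 CD+Veh oocytes, 24 of the 157 kept among the 202 libraries of the series. The series follows 3 generations of mouse oocytes after F0 females were given either diet and, as hormone treatment, the androgen dihydrotestosterone (DHT) or its vehicle (Veh), in a study of polycystic ovary syndrome and its passage to descendants. Both groups are C57Bl/6J, an inbred laboratory strain, and every library is 1 mature (MII) oocyte, which waits in its second meiotic division until fertilised. The HFHS+Veh title conflicts with another label: all 15 samples so titled carry DHT as the hormone given to the F0 female, while their diet label, high in fat and sugar, matches the title. The CD+Veh samples are labelled control diet and vehicle throughout. The F0 diet differs between the groups under either label, and if the hormone also differed, its part and that of diet cannot be told apart. No animal is named for any F1 oocyte, so each group counts as 1 sample. No test was made and no p-value is given. Standard deviations describe the spread between oocytes, which may share a mother.

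The MII oocyte transcribes very little and lives on messenger RNA stored during growth, so its RNA profile reflects what was laid down in the follicle and what has since been degraded. In the follicle it is coupled through gap junctions to cumulus cells, granulosa cells that hand it pyruvate, cholesterol and amino acids. After the ovulatory surge cumulus cells bind hyaluronan into an expanding matrix and begin to make progesterone. Cumulus cells are usually removed before an oocyte is sequenced, and RNA of any that stay attached is read together with that of the oocyte.

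Genes were therefore divided by their behaviour in F2 and F3, which share no library with F1. The 9960 genes tested reached 1 CPM, that is 1 of every 1000000 gene counts, in at least 25% of the 112 kept F2 and F3 oocytes with CD+Veh, CD+DHT, HFHS+Veh or HFHS+DHT titles. Among them 4689 were called oocyte genes, with at least 5 CPM in at least 75% of the 36 kept CD+Veh oocytes of F2 and F3. Carry-over genes were tested genes outside that class whose level followed the summed level of cumulus and granulosa markers over the 112 oocytes, with a Spearman rho of at least 0.5. Of the 54 markers in the table, 8 were themselves oocyte genes. The sum of all 54 gave 31 carry-over genes, and the sum of the other 46, an alternative chosen after seeing the data, gave 85 that include all 31. Both rules pool F2 and F3, and the median sum of the 46 was 49.8 CPM in F2 CD+Veh and 1475 CPM in F3 CD+Veh. A gene that differs between these generations for another reason could reach that rho, and rho within a generation was not taken. A difference below is the mean over oocytes of log2(CPM + 1) in HFHS+Veh minus that in CD+Veh, on the log2 scale, and each oocyte weighs the same. This scale understates the difference of low genes.

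Gene counts ran from 158259 to 7660532 in CD+Veh, with a median of 935112.5, and from 511862 to 10481507 in HFHS+Veh, with a median of 1889952.5. The median number of genes with a count was 9642.5 in CD+Veh and 10640.5 in HFHS+Veh, and 6745 and 6797.5 once every oocyte was thinned to 100000 counts. Without control oocytes 7 and 8, described next, the control medians were 10633 and 6858, so the thinned value was then higher in CD+Veh. Control oocytes 7 and 8 stood apart. Spike-in RNA took 2.66% and 4.33% of their counts, against 0.267% to 0.801% in the other 22 oocytes, and 430 and 586 of the 4689 oocyte genes had no count in them, against at most 95 in any other control and 82 in any HFHS+Veh oocyte. Neither is in the authors' normalised table. Results are given with and without these 2 oocytes, and also against the 6 control oocytes with at least 500000 counts and 6000 genes (801953 to 7660532 counts), whose depth lies within the range of the 14 HFHS+Veh oocytes.

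Both groups carried the messages that define an oocyte. Gdf9, a growth factor the oocyte sends to its cumulus cells, ran from 162 to 15666 CPM in CD+Veh (median 8304), its lowest value being in oocyte 8, and from 2173 to 14129 CPM in HFHS+Veh (median 10790.4). Bmp15, its partner, had medians of 1492 and 1380 CPM. Of the 5 most abundant oocyte genes, 4 differed little with or without control oocytes 7 and 8: Tcl1, a coactivator of the kinase AKT, differed by -0.13 (0.15 without the 2 oocytes), Spin1, a reader of histone methylation, by 0.03 (0.21), Ccdc6 by -0.07 (0.07) and Bcl2l10, a BCL2 relative of the egg, by 0.32 (0.14). H1foo, the oocyte linker histone, differed by 0.996, and by 0.03 without them. Its lowest control value was 307 CPM, against 5967 CPM without the 2 oocytes.

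RNA of cumulus cells was higher in many HFHS+Veh oocytes. The summed level of the 46 markers that are not oocyte genes ran from 6.89 to 1965 CPM in CD+Veh, with a median of 295, and from 38.1 to 11335 CPM in HFHS+Veh, with a median of 1277. Of the 14 HFHS+Veh oocytes, 10 lay above the control median and 3 above the highest control (oocytes 1, 13 and 8, at 11335, 3948 and 3352 CPM). The groups overlapped: HFHS+Veh oocytes 5, 6, 11 and 14 held only 38.1 to 79.1 CPM. The difference of the means was 1.98 log2 units with an SD of 2.56 over oocytes, so it was smaller than that spread. It was 1.597 without control oocytes 7 and 8, and 2.49 against the 6 deeper controls. Counts pooled over a group, which let deep libraries weigh more, gave 1891 CPM (95% exact Poisson interval 1878 to 1904) in HFHS+Veh and 142 CPM (138 to 148) in CD+Veh. Those intervals cover counting error only, as do all intervals here, since there are no molecular identifiers. HFHS+Veh oocyte 1, at 11335 CPM in 3800621 gene counts, supplied most of the 80970 pooled marker counts of its group.

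**Figure D1:**
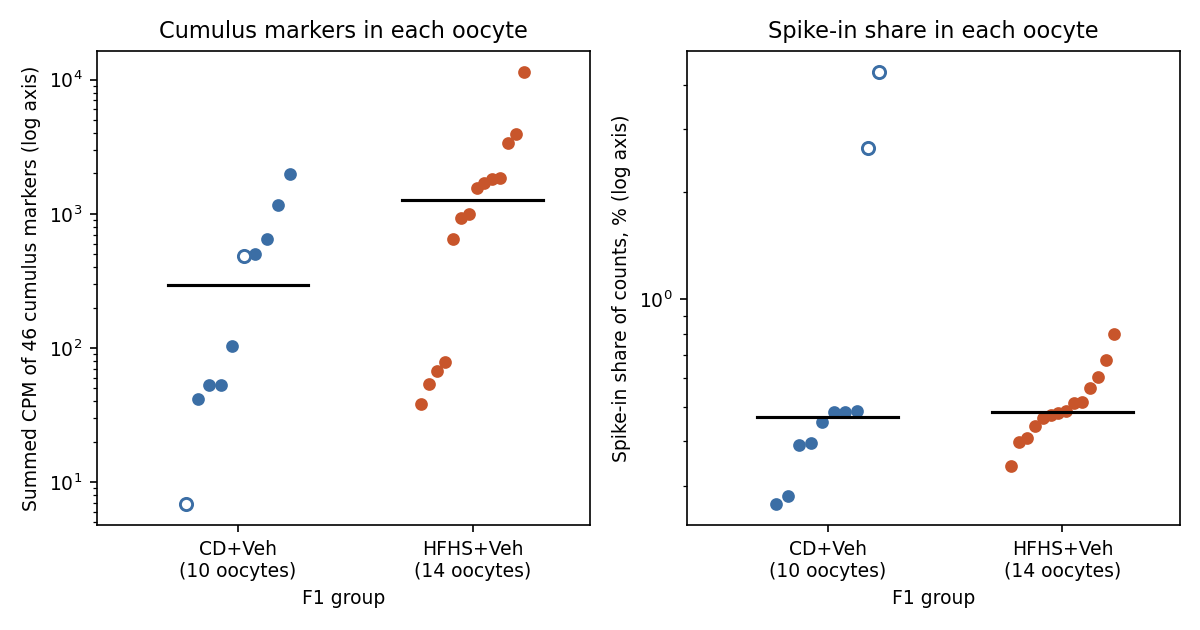
Left, summed CPM of the 46 cumulus and granulosa markers that are not oocyte genes in each kept F1 oocyte, on a log axis; right, the share of all counts taken by spike-in RNA, in percent, on a log axis. Each point is 1 oocyte, lines are medians, and open points are control oocytes 7 and 8; HFHS+Veh oocytes have a median of 1277 CPM against 295 CPM, with 4 of them at 79.1 CPM or less, and only the open points exceed 0.801% spike-in.

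The F1 DHT groups had medians of 352 CPM in CD+DHT (8 oocytes) and 139 CPM in HFHS+DHT (13 oocytes). All 54 markers together had medians of 3464 CPM in CD+Veh and 4362 CPM in HFHS+Veh and differed by 0.47, since most of that sum comes from the 8 markers that are oocyte genes, such as Serpine2 and Rgs2. The 46 markers were also detected in larger number: 7 to 33 had a count in HFHS+Veh oocytes (median 20.5) and 1 to 22 in CD+Veh oocytes. Amh and Wt1, markers of granulosa cells in earlier follicles, and Areg, an early signal of expansion, had no count in any of the 24 oocytes. A count of 0 allows up to 3 counts in a library, which is 18.96 CPM in the shallowest oocyte and 0.286 CPM in the deepest. Sums over markers of other cell types reached lower maxima, although in control oocyte 8 endothelial (48.2 CPM) and macrophage (20.7 CPM) markers exceeded the 6.89 CPM of cumulus markers. In HFHS+Veh and CD+Veh respectively, markers of theca and stroma summed to at most 28.9 and 34.7 CPM, those of endothelium to 24.3 and 48.2 CPM, those of oviduct epithelium to 77.4 and 24.2 CPM, and those of macrophages to 579 and 46.3 CPM. HFHS+Veh oocyte 7 held more macrophage RNA than any other. It had 171 CPM of Lyz2, a macrophage lysozyme, and 90.6 CPM of the immune adaptor Tyrobp, while the highest values in the other 23 oocytes were 14.12 and 0 CPM.

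The genes called carry-over in F2 and F3 were higher as a group. They include cumulus markers themselves, with Tnfaip6, Timp1, Mgst1 and Gja1 among the 31 and also Spp1 among the 85. The counts that follow thus overlap with the marker sums above, and counts without the markers were not made. Of the 31, 24 (77.4%) were at least 1 log2 unit higher in HFHS+Veh and 0 were as much lower (0.00%), against 5.56% and 1.84% of all 9960 tested genes. Their median difference was 1.56, beside 0.06 for all tested genes. Of the 85, 62 (72.9%) were at least 1 log2 unit higher, 83 were higher at all, and the median was 1.42. Without control oocytes 7 and 8 these counts were 24 of 31 and 60 of 85 (70.6%), where the share of all tested genes was 2.56%. Against the 6 deeper controls they were 25 of 31 (80.6%) and 65 of 85 (76.5%), beside 2.28%. Leaving out also HFHS+Veh oocytes 1 and 2, chosen after seeing the data and holding 11335 and 1564 CPM of the 46 markers, together with control oocytes 7 and 8, left 16 of 31 (51.6%) and 38 of 85 (44.7%), beside 2.08%. Detection moved the same way. A median of 74 of the 85 had a count in a HFHS+Veh oocyte (23 to 85), 41 in a CD+Veh oocyte (7 to 72) and 43.5 in the 6 deeper controls. Attached cells and free RNA cannot be told apart here, and the part of cumulus RNA in any other difference was not tested.

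**Figure D2:**
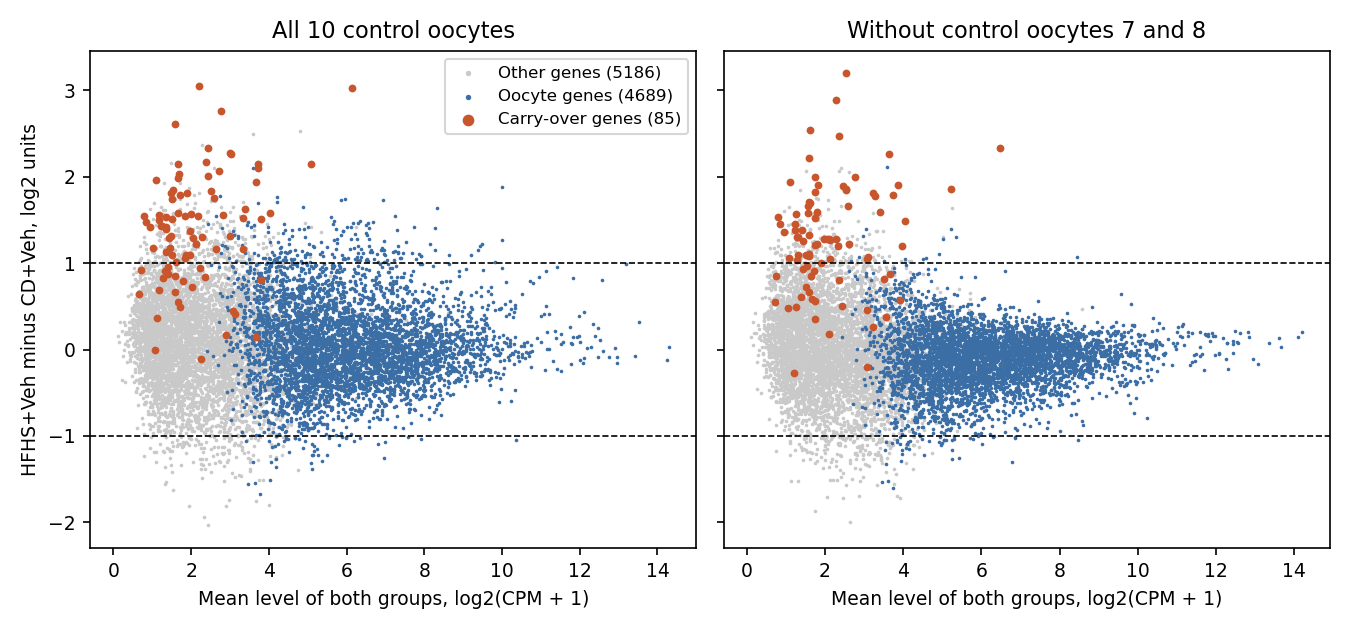
Each point is 1 of the 9960 tested genes: mean log2(CPM + 1) of both groups on the x axis, HFHS+Veh minus CD+Veh in log2 units on the y axis, with all 10 control oocytes (left) and without control oocytes 7 and 8 (right). The 85 carry-over genes lie mostly above the dashed line at 1 in both plots, whereas the upper spread of the 4689 oocyte genes, 193 of them past 1 on the left, shrinks to 15 on the right.

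With all 10 controls the cumulus expansion list held the 2 largest differences named here, Tnfaip6 and Spp1. Tnfaip6 (chromosome 2, 52038009 to 52056686) encodes TSG-6, which transfers protein chains onto hyaluronan and so crosslinks the matrix. It had no count in 7 of 10 control oocytes and at most 7.48 CPM in the others, and ran from 0 to 285 CPM with a median of 14.47 in HFHS+Veh. Of the 14 oocytes 9 lay above the highest control and 3 had no count. The means were 3.72 (SD 2.77) and 0.67 (SD 1.198), a difference of 3.05 that was 2.88 without control oocytes 7 and 8 and 2.61 against the deeper controls. Pooled, it was 2067 counts or 48.3 CPM (46.2 to 50.4) against 47 counts or 2.13 CPM (1.56 to 2.83). Timp1, an inhibitor of matrix metalloproteinases, ran from 0 to 25.28 CPM in CD+Veh (median 0.34) and from 0 to 151 CPM in HFHS+Veh (median 10.9), with 5 of 14 above the highest control and a difference of 2.18. Its locus overlaps a gene on the opposite strand, and how strand was treated in counting is not given in the sources used here. Spp1, the secreted phosphoprotein osteopontin, had medians of 11.9 CPM in CD+Veh (0 to 1668) and 595 CPM in HFHS+Veh (0 to 8173), a difference of 3.03 with 3 of 14 above the highest control. Without control oocytes 7 and 8 the difference was 2.33. Spp1 is a carry-over gene only by the sum of the 46 markers. It made up a median 55.0% of the marker sum in HFHS+Veh. Without Spp1 that sum still had medians of 407 and 111 CPM and differed by 1.56. Sdc4, a cell surface proteoglycan, differed by 2.496, Ptgs2, the prostaglandin synthase of the ovulatory surge, by 1.17, and Vcan, the matrix proteoglycan versican, by 0.91. Of the 9 tested members of the expansion list, 7 were higher and 6 were so by at least 1 log2 unit, with a median of 1.18 (1.06 without control oocytes 7 and 8). Of all tested genes 5.56% were as much higher, and 2.56% without the 2 oocytes.

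Steroid genes were uneven. Hsd3b1 (chromosome 3, 98852194 to 98859794, minus strand), which turns pregnenolone into progesterone, had medians of 0.08 CPM in CD+Veh (0 to 75.2) and 37.1 CPM in HFHS+Veh (0 to 250). Only 4 of 14 lay above the highest control, and the difference was 2.76 (3.197 without control oocytes 7 and 8). Akr1c18, which breaks progesterone down, differed by 1.51, with 0 of 14 above the highest control of 468 CPM, and by 0.50 without HFHS+Veh oocytes 1 and 2 and control oocytes 7 and 8. Against the 6 deeper controls, which reach 16.2 CPM, it differed by 2.71 with 8 of 14 above them. Mgst1, a glutathione transferase of luteinising cells, differed by 1.94 with 9 of 14 above the highest control. The earlier steps of the pathway depended on the controls used. Cyp11a1, which makes pregnenolone from cholesterol, differed by -0.11 (0.19 without control oocytes 7 and 8), and Star, which feeds cholesterol to it, by 0.25 (0.61). Against the 6 deeper controls they differed by 0.87 and 0.94, with 4 and 5 of 14 above the highest. Both were at 0 in several oocytes of each group, Cyp11a1 in 4 of 10 and 5 of 14. The paralogs of the Hsd3b and Akr1c families may share reads. Of 8 tested members of the steroid list 6 were higher, with a median of 0.49 (0.65).

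The 250 bases upstream of 3 of these genes, a matrix protein, a protease inhibitor and a steroid enzyme among the larger differences, are shown with their RefSeq starts on GRCm38.p6, written 5′ to 3′ on the strand of the gene. Capitals mark the AP-1 motif TGANTCA, a site class of factors that act in cumulus expansion. Tnfaip6 is at chr2:52037863-52038112 on the plus strand, Timp1 at chrX:20869916-20870165 on the plus strand and Hsd3b1 at chr3:98859795-98860044 on the minus strand.
Tnfaip6: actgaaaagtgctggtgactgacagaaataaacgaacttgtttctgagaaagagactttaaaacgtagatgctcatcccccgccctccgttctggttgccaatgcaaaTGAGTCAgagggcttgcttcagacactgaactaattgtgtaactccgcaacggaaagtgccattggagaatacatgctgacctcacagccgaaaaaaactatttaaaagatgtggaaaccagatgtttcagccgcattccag
Timp1: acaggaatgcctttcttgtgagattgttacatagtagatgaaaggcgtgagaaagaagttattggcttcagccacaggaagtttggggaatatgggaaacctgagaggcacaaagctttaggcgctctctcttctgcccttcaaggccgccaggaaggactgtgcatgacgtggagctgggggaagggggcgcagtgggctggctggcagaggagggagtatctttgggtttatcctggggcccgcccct
Hsd3b1: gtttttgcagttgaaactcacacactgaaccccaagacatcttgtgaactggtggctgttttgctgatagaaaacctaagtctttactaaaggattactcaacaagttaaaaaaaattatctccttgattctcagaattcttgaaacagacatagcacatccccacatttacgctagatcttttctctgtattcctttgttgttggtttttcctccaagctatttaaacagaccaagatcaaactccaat
Searched on both strands, the motif occurs 1 time upstream of Tnfaip6, 142 bases before its RefSeq start, and 0 times in the other 2 windows. The Tnfaip6 window ends at 52038112, inside the locus given above for the gene, which starts at 52038009. The AP-1 motif is present in 6.75% of 32851 mouse promoter windows of the same length. The motif CAAGGNCA, bound by NR5A nuclear receptors of steroid cells, occurs 0 times in the 3 windows and in 5.53% of all. A match is a description of letters, and 0 matches says only that these letters are not in this window.

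Granulosa markers were split by class. Gja1, the connexin of the gap junctions between cumulus cells, ran from 0 to 30.9 CPM in CD+Veh (median 11.7) and from 0 to 592 CPM in HFHS+Veh (median 28.2), with 7 of 14 above the highest control and a difference of 1.63. Inha, the inhibin alpha chain, differed by 1.09, and Fst, the activin binder follistatin, by 1.02. These 3 are the tested granulosa markers outside the oocyte genes. Of all 8 tested members 5 were higher and 3 lower, with a median of 0.85. Without control oocytes 7 and 8, 3 were higher and 5 lower, with a median of -0.04, and the 5 lower are the 5 in the oocyte class. Kitl, the KIT ligand of granulosa cells, fell in the oocyte class by the rule and differed by -0.66, and by -1.06 without control oocytes 7 and 8. It had no count in control oocyte 8.

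Among the other carry-over genes were several that the marker lists do not hold. Clic1, a chloride channel protein, had no count in 8 of 10 controls and a median of 11.2 CPM in HFHS+Veh (0 to 59.5), with 8 of 14 above the highest control of 4.03 CPM and a difference of 2.61. Sparc, a matrix protein that binds collagen, had medians of 17.39 and 0.55 CPM and a difference of 2.33. The regulator of cell cycle Rgcc differed by 2.28, Wbp5 by 2.26 and the stress protein Nupr1 by 2.15. Lysosomal genes were represented by Gm2a, the activator of ganglioside breakdown, at 2.14, and the protease Ctsl at 2.07. Ldha, the lactate dehydrogenase chain of glycolytic cells, had medians of 18.3 and 1.1996 CPM, 9 of 14 oocytes above the highest control and a difference of 2.01. Without control oocytes 7 and 8 Clic1 differed by 2.54, Sparc by 2.47, Rgcc by 1.81 and Wbp5 by 1.78. Nupr1 then differed by 1.49, Gm2a by 1.86, Ctsl by 1.995 and Ldha by 1.66. Leaving out HFHS+Veh oocytes 1 and 2 as well gave 0.87 (Nupr1) to 2.15 (Sparc) for these genes. For 16 of the 31 carry-over genes (51.6%) at least 7 of 14 HFHS+Veh oocytes lay above the highest of 10 controls, and for 23 of the 85 (27.1%), against 148 of all tested genes (1.49%) and 37 of the oocyte genes (0.789%).

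**Figure D3:**
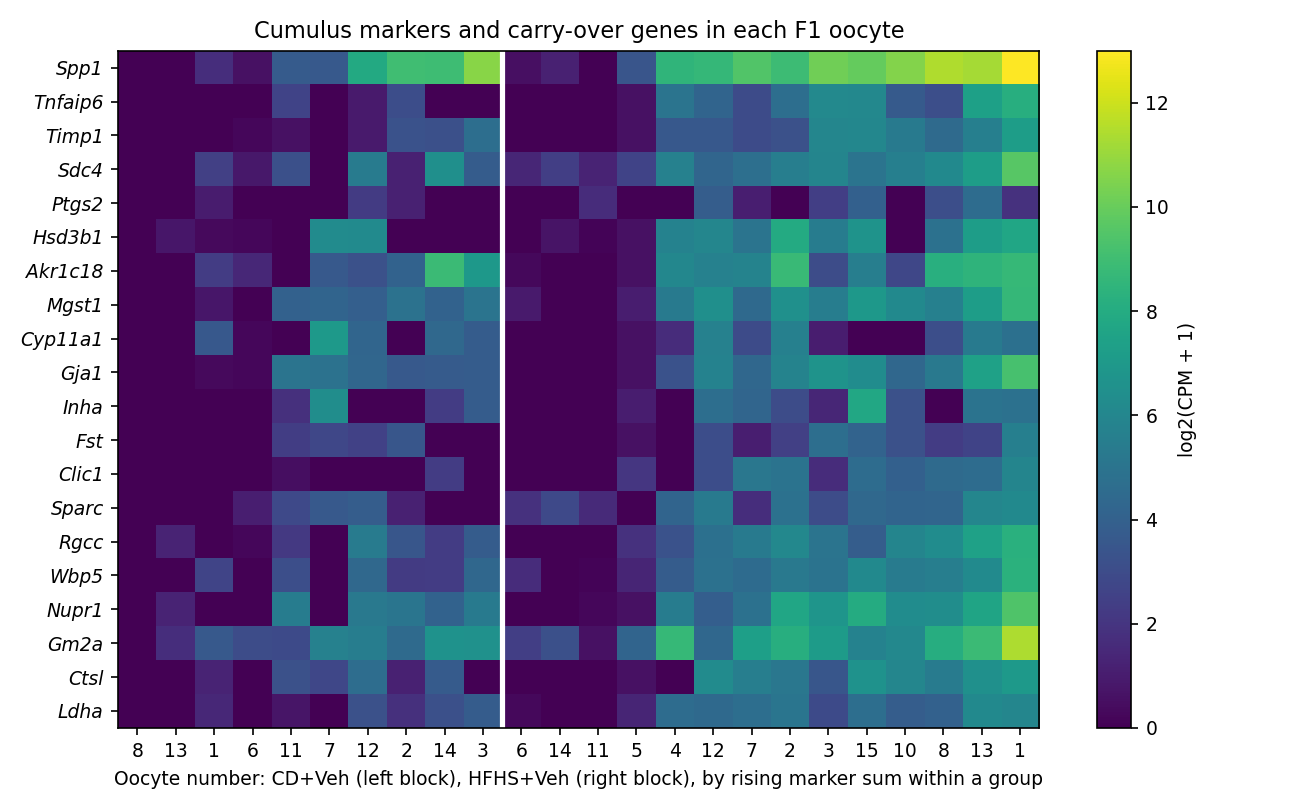
Level of 20 cumulus markers and carry-over genes, as log2(CPM + 1) by colour, in the 10 CD+Veh oocytes (left of the white line) and the 14 HFHS+Veh oocytes (right), each group ordered by its summed markers. HFHS+Veh oocytes 6, 14, 11 and 5 hold few of these genes (a count in 23 to 41 of the 85 carry-over genes) and the other 10 hold many at once (52 to 85).

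Oocyte genes differed far less, and which ones were higher depended on 2 control libraries. With all 10 controls 193 of 4689 (4.12%) were at least 1 log2 unit higher in HFHS+Veh and 47 (1.002%) as much lower, beside 5.56% and 1.84% of all tested genes, with a median of 0.01. Without control oocytes 7 and 8 the counts were 15 (0.320%) and 45 (0.960%), with a median of -0.08, beside 2.56% and 2.15% of all tested genes. Against the 6 deeper controls they were 15 (0.320%) and 34 (0.725%), beside 2.28% and 2.26%. In each case the share of oocyte genes past that size was below that of all tested genes. Only 9 of the 193 and 17 of the 47 were past that size both with and without the 2 oocytes. Of the 193, 170 had no count in oocyte 7 or 8. Of all 4689 oocyte genes, 430 had no count in oocyte 7 and 586 had none in oocyte 8. The number without a count in at least 1 of the 2 was not taken for all 4689. Bcap31, a chaperone of the endoplasmic reticulum, shows the pattern: it had no count in both, 44.4 to 102 CPM in the other 8 controls and 50.5 to 153 CPM in HFHS+Veh (median 112). Its difference was 1.73, and 0.48 without them, although 9 of 14 oocytes lay above the highest control either way. The pluripotency factor Sall4 went from 1.88 to 0.08, the corepressor Trim28 from 1.74 to 0.22, the chemokine receptor Cxcr3 from 1.74 to 0.47, Nfkbiz from 1.65 to 0.63, Pigu from 1.76 to 0.93, Sf3b6 from 1.71 to 0.87 and Rap2a from 1.70 to 0.98.

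A few oocyte genes were higher with and without these controls. Tes, an adaptor of focal adhesions, ran from 0 to 34.4 CPM in CD+Veh (median 6.73) and from 5.34 to 154 CPM in HFHS+Veh (median 20.2), with 2 of 14 above the highest control and a difference of 2.105 (2.11), and 1.27 against the 6 deeper controls. Pag1, a membrane adaptor of SRC kinases, had medians of 3.92 and 13.28 CPM and a difference of 1.78 (1.32), but 0.54 against the 6 deeper controls and 0.57 after thinning. Actin itself, Actb, differed by 1.41 (1.07), reaching 7936 CPM in HFHS+Veh against 733 CPM in controls. The ferritin chains Fth1 and Ftl1 and the nuclear RNA Malat1 passed 1 log2 unit only without control oocytes 7 and 8, at 1.28, 1.10 and 1.304. Within the oocyte class 12 genes followed the 46 cumulus markers in F2 and F3 with a rho of at least 0.5. Of these 12, 6 are among the 15 higher genes, including Tes (0.50), Fth1 (0.62), Ftl1 (0.57) and Malat1 (0.62). Ferritin genes have near-identical copies that may share reads.

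Lower oocyte genes numbered about the same with and without control oocytes 7 and 8, but the count rests on giving each oocyte the same weight. With counts pooled over a group, and 1 CPM added before the log as elsewhere, 0 of the 4689 were at least 1 log2 unit lower. Of them 18 were as much higher. Slc26a5 (chromosome 5, 21810655 to 21865604, minus strand), the gene of prestin, a motor protein known from hair cells of the ear, ran from 12.6 to 28.7 CPM in CD+Veh (median 19.7) and from 1.08 to 18.1 CPM in HFHS+Veh (median 7.42). Of the 14 oocytes 10 lay below the lowest control, and 0 lay above the control median. The means were 2.86 (SD 1.06) and 4.41 (SD 0.35), a difference of -1.55, larger than the SD of either group, with -1.52 without control oocytes 7 and 8 and -1.57 against the deeper controls. Pooled, it was 9.04 CPM (8.16 to 9.98) against 18.9 CPM (17.12 to 20.8). The DHT groups of F1 had medians of 11.3 CPM in CD+DHT and 12.5 CPM in HFHS+DHT, between the 2 groups compared. Samd7, a polycomb-associated repressor, had medians of 24.5 CPM (9.92 to 51.1) and 6.35 CPM (0 to 48.2), with 8 of 14 below the lowest control and a difference of -1.67 (-1.60). For 2610507B11Rik the medians were 17.7 and 9.35 CPM and the difference -1.55 (-1.53). The zinc finger gene Zmym4 differed by -1.30 (-1.16) with 9 of 14 below the lowest control, the kinase Cdk16 by -1.30 (-1.16, and 0.14 with pooled counts), Car10 by -1.38 (-1.11), Zfp930 by -1.36 (-1.14), the giant muscle protein titin, Ttn, by -1.29 (-1.04), and Dbndd1 and the oocyte cap-binding protein Eif4e1b by -1.51 (-0.85) and -1.31 (-0.78).

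Because the naming rule also takes members of the spindle and maternal effect lists, lower genes of both lists were named. Members at least 1 log2 unit higher are not named in this paragraph. With all 10 controls as many spindle genes (2 of 38) were at least 1 log2 unit higher as lower. Of 34 maternal effect genes 3 were as much higher and 1 lower. The shares of all tested genes were 5.56% higher and 1.84% lower. Without control oocytes 7 and 8, 0 spindle genes were as much higher and 2 lower. For maternal effect genes these counts were 0 and 3, and the shares of all tested genes 2.56% and 2.15%. Tacc3, which steadies spindle microtubules, ran from 11.6 to 227 CPM in CD+Veh (median 179), its 2 lowest values being in oocytes 7 and 8, and from 23.4 to 159 CPM in HFHS+Veh (median 64.6). It differed by -0.57, by -1.30 without those 2 and by -1.28 against the deeper controls, where 8 of 14 lay below the lowest. Its medians in the F1 DHT groups were 85.6 CPM in CD+DHT and 86.0 CPM in HFHS+DHT. Mki67, which coats condensed chromosomes, had medians of 184 CPM (94.0 to 441) and 84.99 CPM (34.9 to 195), with 9 of 14 below the lowest control and a difference of -1.25 (-1.01). The histone demethylase Kdm4a, a maternal factor needed by early embryos, differed by -1.15 (-1.16) but by 0.10 with pooled counts, and Ooep, of the subcortical maternal complex, by 0.09 with all controls and -1.02 without oocytes 7 and 8. Fdft1, which makes squalene for cholesterol, differed by -1.06 (-1.32). Utp14a, of ribosome assembly, differed by -0.30 (-1.21), with 11 of 14 below the lowest of the 8 controls. Bub1, a spindle checkpoint kinase, differed by -0.76 (-0.71) with 9 of 14 below. Nlrp14, an oocyte NLR protein, ran from 921 to 1448 CPM in those 8 and from 404 to 1037 CPM in HFHS+Veh, with 11 of 14 below the lowest and a difference of -0.73 there. Zfp57, which guards methylation at imprinted loci, differed by only -0.35 (-0.50), yet 10 of 14 lay below the lowest of the 8. Bub1, Nlrp14 and Zfp57 were chosen after their values were seen, and Nlrp genes may share reads.

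**Figure D4:**
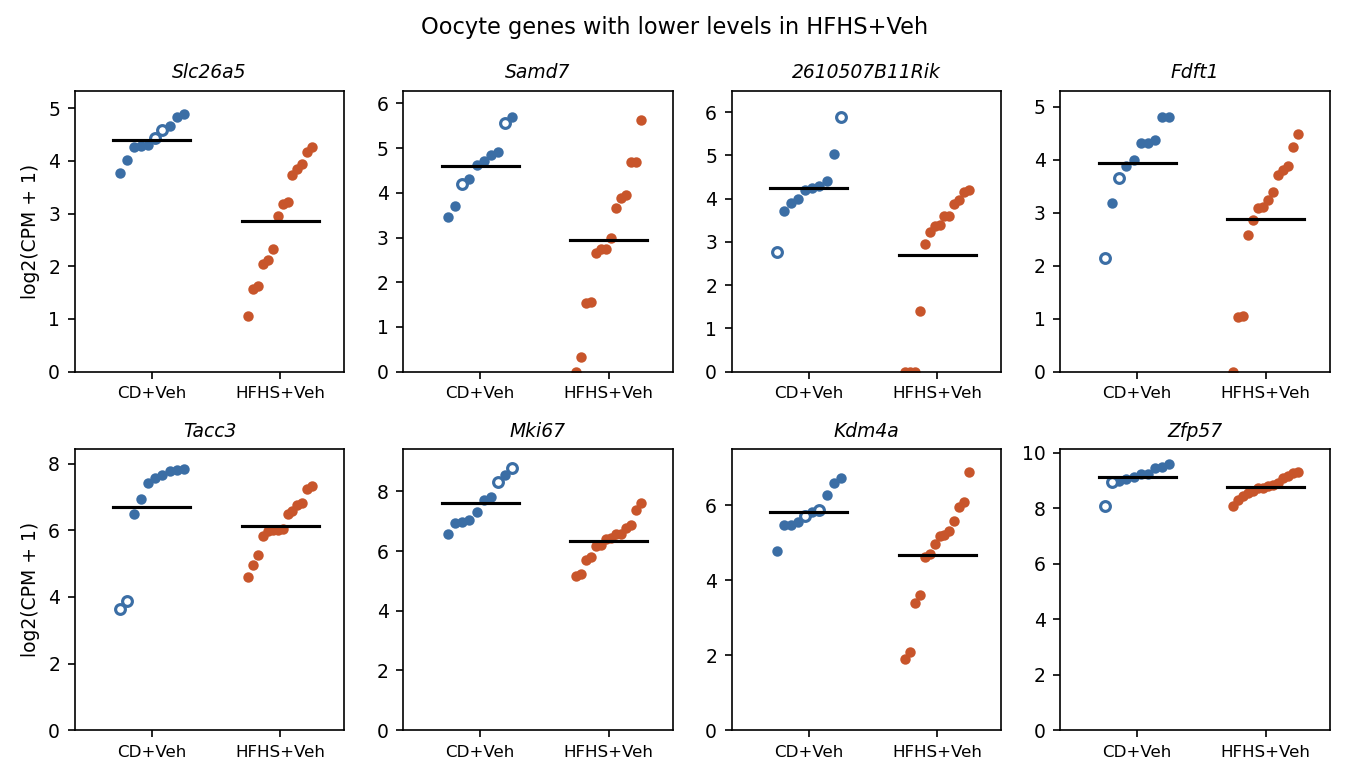
Level of 8 oocyte genes as log2(CPM + 1) in each CD+Veh oocyte (blue, open points for oocytes 7 and 8) and each HFHS+Veh oocyte (red), with the mean of each group as a line. HFHS+Veh oocytes reach lower than the 8 filled control points in every plot, and the 2 groups overlap in every plot.

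The 45 genes at least 1 log2 unit lower without control oocytes 7 and 8 were chosen by that difference, so the following is a description. Against the 6 deeper controls, which are among the 8, 26 of them were still at least 1 log2 unit lower. A rho of 0.5 with the cumulus markers was seen in 0 of the 45 and in 0.256% of all oocyte genes. In 26 of the 45 at least 7 of 14 HFHS+Veh oocytes lay below the lowest of the 8 controls, a pattern shared by 354 of the 4689 oocyte genes (7.55%), while 78 (1.66%) had at least 7 above the highest. The 45 were low in level, with a median control CPM of 36.7 over the genes, against 68.0 over all oocyte genes.

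Gene lists on oocyte function had small medians. In meiosis and spindle genes 22 of 38 members were lower, with a median of -0.09, and 30 of 38 with a median of -0.19 without control oocytes 7 and 8, where all tested genes had -0.05. Maternal effect genes had 20 of 34 lower (median -0.10), and 27 of 34 (-0.21). Of all oocyte genes 48.5% were lower with all controls and 62.2% without the 2, so without them most oocyte genes at large were lower too. Both lists had a larger share lower than that, and this excess was not tested. Oocyte identity genes went from 0.14 to -0.17, with Nobox, a transcription factor of growing oocytes, at -0.97 (-0.79) and Zar1, a maternal RNA-binding protein, at 1.19 (0.12). Unfolded protein response genes depended on the 2 oocytes, with 20 of 25 higher and a median of 0.39 with all controls but 8 of 25 higher and -0.16 without the 2. Hspa5, the main chaperone of the endoplasmic reticulum, was at 0.39 and -0.73, and Calr, calreticulin, at -0.53 and -0.77. Insulin, mTOR and AMPK genes stayed near 0, with a median of -0.03 (-0.03) and 0 of 30 past 1 log2 unit. DNA methylation genes were at 0.14 (0.00).

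Metabolic lists had more members higher than lower in HFHS+Veh. Of all tested genes 45.3% were lower with all controls and 56.0% without control oocytes 7 and 8. Nuclear subunits of oxidative phosphorylation had 58 of 72 members higher and a median of 0.51 (0.29). Of the 72, 15 were at least 1 log2 unit higher, beside 5.56% of all tested genes. The count was 9 without control oocytes 7 and 8, beside 2.56%, and 8 against the 6 deeper controls, beside 2.28%. Without HFHS+Veh oocytes 1 and 2 and control oocytes 7 and 8 it was 5, beside 2.08%. The split followed the gene classes: the 17 that are oocyte genes had a median of 0.06 (-0.04) and the other 55 a median of 0.60 (0.42). Ndufb10, of complex I, ran from 0 to 4.44 CPM in CD+Veh and from 0 to 59.7 CPM in HFHS+Veh, a difference of 2.16 (2.06), and Sdhb, of complex II, differed by 1.47 (2.07). Glycolysis genes had 14 of 17 higher and a median of 0.57 (0.29). Tpi1 led, with medians of 1.70 and 15.8 CPM and a difference of 1.84 (1.90), whereas Ldhb, the lactate dehydrogenase of oocytes, differed by 0.04 (-0.35). Ribosomal proteins had 17 of 20 higher and a median of 0.53 (0.49), with Rps3 at 1.76 (1.86). Tpi1, Ldha and Rps3 are themselves among the 85 carry-over genes, as is Cpt1a, the gate of fatty acid entry into mitochondria, at 1.74 (1.59). Fatty acid genes had 26 of 32 higher and a median of 0.36 (0.18), and cholesterol genes 18 of 25 and 0.46 (0.00). Against the 6 deeper controls the medians were 0.24 for oxidative phosphorylation, 0.19 for glycolysis, 0.35 for ribosomal proteins and 0.04 for cholesterol, beside -0.09 for all tested genes. Ribosomal and mitochondrial genes have near-identical copies that may share reads. The summed cumulus markers were higher in the same group, at a median of 1277 against 295 CPM, and their part in these lists was not tested.

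**Figure D5:**
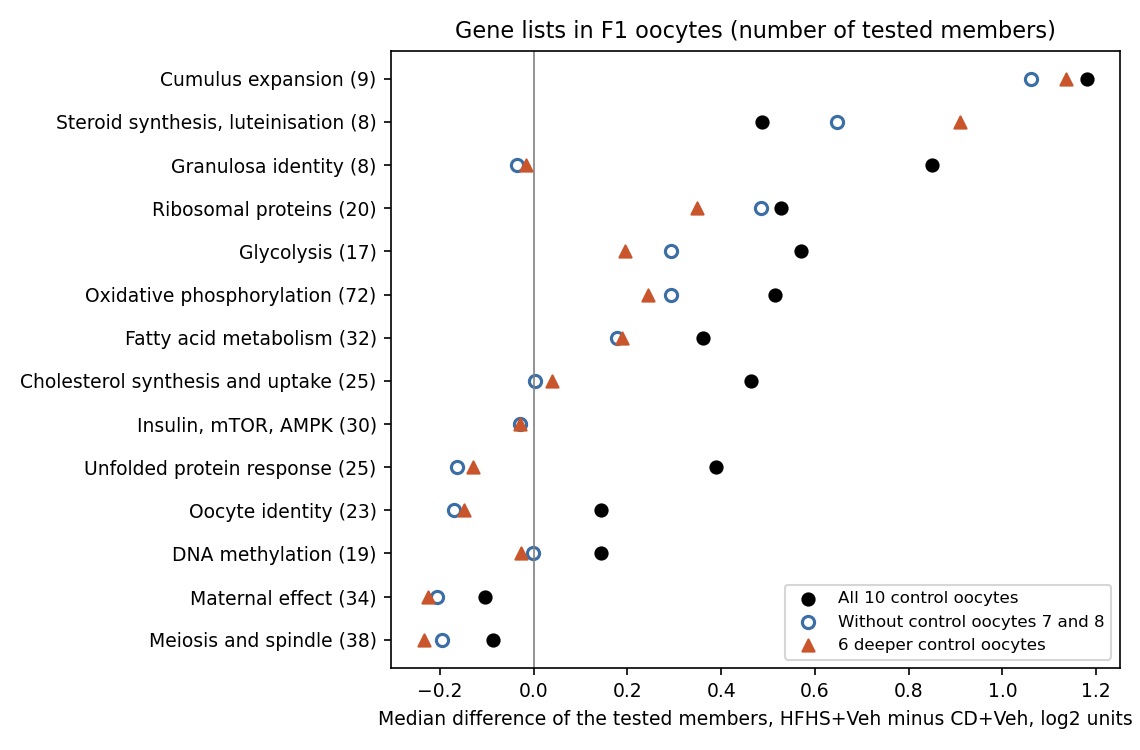
Median over tested members of the difference, HFHS+Veh minus CD+Veh in log2 units, for 14 gene lists (number of tested members in brackets), with all 10 control oocytes (filled), without control oocytes 7 and 8 (open) and against the 6 deeper controls (triangles). Cumulus expansion stays above 1 in all 3, whereas unfolded protein response, granulosa identity and oocyte identity lie on both sides of 0.

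The F2 and F3 oocytes with the same titles, which share no library with F1, were set beside these values. Their levels set the gene classes, so neither rule is independent of the F2 and F3 contrasts of its class. Oocyte genes were chosen for their level in CD+Veh alone. Carry-over genes were chosen by rho over all 112 oocytes, which include the CD+Veh and HFHS+Veh oocytes contrasted here. A difference in F2 is taken from means over oocytes within an animal, then over 4 animals per group. In F3 each oocyte weighs the same. Animals are named there for HFHS+Veh but not for CD+Veh, and HFHS+Veh oocytes that share an animal were not averaged first. Of the 85 carry-over genes 0 (0.00%, beside 0.0803% of all tested genes) were at least 1 log2 unit higher in HFHS+Veh of F2, with a median of 0.23, and 3 (3.53%, beside 2.18%) in F3, with a median of -0.08. Of the 31, 0 were so in F2 and 1 (3.23%) in F3. Tnfaip6 differed by -0.25 in F2 and -0.03 in F3. Median marker sums were 49.8 CPM in F2 CD+Veh and 138 CPM in F2 HFHS+Veh, and 1475 and 2010 CPM in F3. Of the 45 lower oocyte genes, 35 were also lower in F2, as were 3080 of all 4689, and 20 in F3, as were 1879 of 4689. Slc26a5 differed by -0.35 in F2 and -0.83 in F3, and Fdft1 by -1.21 and -0.82. Tacc3 differed by -0.45 and 0.09, and Mki67 by 0.04 and 0.62.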

How the data were processed

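RNA of single mouse oocytes was sequenced after full-length Smart-seq2 amplification, which uses no molecular identifiers. STAR 2.4.2a, Seurat 2.0 and the build mm10 are named in the submitters' processing notes, with no role given. Which program, annotation and strand setting gave the counts is not stated in the labels used here. The authors deposited whole-number counts per gene, RPKM of the same libraries, and normalised values that fit a natural log of counts scaled to 10000 per oocyte, as read from the values.

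From the counts, 24489 gene lines were kept and 92 spike-in lines and the eGFP line left out. Repeated symbols were summed, giving 23995. Spreadsheet dates stand for 25 symbols, which hold at most 0.353% of an F1 oocyte's counts. Oocytes were kept, genes classed and differences of log2(CPM + 1) taken as stated above, with scipy 1.17.1 and pandas 2.3.3 on numpy 2.4.6 and Python 3.11.15. The log2 difference, the thinning and the rank correlation were tested on simulated data. The gene classes, marker sums and other steps were not. No 2 libraries were identical. Because no animal is named for F1, no model was fitted across oocytes. Positions are from GENCODE vM21 on GRCm38, where 9514 of the 9960 tested symbols have 1 position.

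Named genes are the 10 largest differences each way among oocyte genes with a median of at least 10 CPM in the higher group, the 10 largest among carry-over genes with 10 CPM in at least 5 oocytes, the 5 most abundant oocyte genes, and members of the gene lists, with the same rule also run without control oocytes 7 and 8. The members, lists and rules were chosen with earlier results of these data known. Alternatives were pooled counts, medians, other pseudocounts, stricter filters, other scaling, thinning to 100000 counts, RPKM, other class limits and leaving out each oocyte. Added after seeing the data were the sum over markers that are not oocyte genes, the sets without control oocytes 7 and 8 or without HFHS+Veh oocytes 1 and 2, the authors' normalised values and the naming rule without the 2 controls.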

Additional observations from a re-analysis of the deposited data

Results flagged for a closer look

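Among 68 values checked in the 10 control oocytes, 6 had an oocyte far from the others by Dixon's ratio at the 95% level, and chance gives about 1 in 20. Values are log2(CPM + 1). Control oocyte 8 was the lowest of the 10 in 4 of them: Zfp57 at 8.07 (next 8.93), Bcl2l10 at 11.95 (next 13.23), Kitl at 0.00 (next 3.91) and Zar1 at 0.00 (next 4.90). Its spike-in share was 4.33%. The other 2 were high: Clic1 reached 2.33 in control oocyte 14, with 0.48 next, and Ptgs2 reached 2.25 in control oocyte 12, with 1.17 next.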

How the results depend on the processing

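The count of oocyte genes at least 1 log2 unit higher, 193, was 18 with pooled counts, 21 with medians, 36 and 362 with pseudocounts of 5 and 0.25 CPM, 15 with the filter of 500000 counts and 6000 genes, 330 after thinning, 95 in RPKM, 128 of the 3503 oocyte genes by the 90% rule, 15 without control oocytes 7 and 8 and 16 with the authors' normalised values. Leaving out 1 oocyte gave 40 to 293, with 40 without control oocyte 8, 43 without control oocyte 7, 293 without control oocyte 6 and 291 without control oocyte 12. The 47 lower ones were 0 with pooled counts, 22 with medians, 15 with a pseudocount of 5 CPM, 256 after thinning, 26 in RPKM and 23 by the 90% rule, and 24 to 68 leaving out 1 oocyte, with 24 without HFHS+Veh oocyte 4 and 31 without control oocyte 7. The 24 of 31 carry-over genes were 14 with a pseudocount of 5 CPM, 63 of 92 at a rho of 0.4, 4 of 6 at 0.6, 62 of 85 with the sum over markers that are not oocyte genes, and 21 to 27 leaving out 1 oocyte. With medians 1 of the 31 was at least 1 log2 unit lower. The summed markers differed by 0.34 to 0.54 (all 54) and 1.48 to 2.37 (the 46) leaving out 1 oocyte. The difference of medians in genes detected, 52.5 after thinning, was 998 without it and -33.5 to 138.5 leaving out 1 oocyte, below 0 without control oocyte 1, 2, 7, 8 or 11, and -60.5 without both 7 and 8. Directions reversed with pooled counts for Cxcr3 (-0.26), Cdk16 (0.14) and Kdm4a (0.10), and for Serpine2 without control oocytes 7 and 8 (-0.0015) and with the authors' values (-0.039). Values under 1 log2 unit also turned sign without those 2 controls for Ooep, Cyp11a1, Tcl1 and Ccdc6, given above, as did 6 of 22 list medians: granulosa identity, oocyte identity, unfolded protein response, DNA methylation, mitochondrial dynamics and proteasome. The causes of these shifts were not tested. No paired analysis was possible because the F1 oocyte numbers tie no oocyte of one group to one of the other. Precision is limited by the shallow controls, 4 of which hold under 500000 counts.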

Other observations

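HFHS+Veh oocyte 7 carried macrophage messages that the other kept oocytes of the 2 groups lacked or held at lower level. Of 13 macrophage markers 10 had a count there, against at most 7 in any other kept oocyte. Besides Lyz2 and Tyrobp these included Cd68, a lysosomal protein, at 150 CPM (at most 20.7 elsewhere), Fcer1g, an Fc receptor chain, at 53.3 CPM (at most 2.49) and C1qb, a complement chain, at 41.9 CPM (at most 17.35). Its summed cumulus markers were 990.3 CPM, inside the control range.

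HFHS+Veh oocyte 9, left out at 98791 gene counts, had 3462 CPM of the 46 cumulus markers, above the highest kept control. Its macrophage markers summed to 304 CPM.

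Gabarap, of autophagosomes and 1 of the 85 carry-over genes, ran from 0 to 5.78 CPM in CD+Veh and from 0.23 to 32.6 CPM in HFHS+Veh, with 8 of 14 above the highest control and a difference of 2.04 (2.22 without control oocytes 7 and 8).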
